A study of Mus musculus with 6 samples.

Results

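The genes described here make cholesterol and long-chain fatty acids under the SREBP transcription factors, and they were followed in hematopoietic stem cells (HSCs) with and without the ribosomal protein gene Rpl22. A list of 31 genes was matched by symbol to the 34573 genes of the count table, and all 31 were present, Msmo1 under its older symbol Sc4mol. They comprise 17 enzymes of the sterol branch, from Acat2 to Dhcr7, 8 enzymes of the fatty acid branch, from Acly to Fads2, and 6 genes that control the pathway or move sterol. All 31 had enough reads to be tested. RNA came from HSCs of adult mouse bone marrow, from young adult Rpl22-/- and Rpl22+/+ mice that had been backcrossed to C57BL/6. The HSCs were sorted as lineage-negative cells with Sca-1, c-Kit and CD150 and without CD48. There were 3 libraries of each genotype, and the number of animals behind each is not given in the sources used here, so p-values measure the spread between these libraries. The knockout is carried by the whole animal, so marrow cells around the HSCs lacked Rpl22 as well.

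SREBP proteins are made as precursors in the endoplasmic reticulum. When membrane cholesterol is low, the escort protein SCAP carries them to the Golgi, where proteases release the part that enters the nucleus. When cholesterol is plentiful, INSIG proteins hold SCAP back. SREBP-2, the product of Srebf2, favours genes of cholesterol synthesis, and the SREBP-1 isoforms from Srebf1 favour genes of fatty acid synthesis. Dividing and growing cells use both products for membranes.

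Each library had between 9321123 and 13385850 reads on genes. Rpl22 itself stood at 40.1 ± 4.59 CPM (SD, n = 3) in Rpl22-/- HSCs and at 538 ± 20.7 CPM (SD, n = 3) in Rpl22+/+ HSCs, where CPM is the depth-normalised read count of edgeR, a gene's share of the reads on genes after scaling with TMM factors. Levels per gene are given in CPM, and changes as the log2 fold change of Rpl22-/- over Rpl22+/+ from edgeR's quasi-likelihood test with its standard error (SE), with p-values adjusted by Benjamini-Hochberg over all 14004 genes tested. In bulk libraries such as these, less RNA per cell and fewer cells with the RNA cannot be told apart.

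In Rpl22-/- HSCs 14 of the 17 sterol enzymes had lower fitted values than in Rpl22+/+ HSCs, and the fatty acid enzymes lay on either side of no change. Of the 31 genes, 4 had an adjusted p below 0.05, all lower in Rpl22-/- HSCs. They were Insig1, Stard4, Hmgcs1 and Idi1. Over all genes tested 5.57% passed in either direction and 2.29% passed as lower, against 12.9% of these 31. None was higher at that threshold, where the share over all genes was 3.28%, and Scap alone was higher at an unadjusted p below 0.05. DESeq2's Wald test called 6 of the 31 and limma-voom called 3, all lower. Of all genes DESeq2 called 7.55% in either direction and 3.01% as lower, and limma-voom 5.3% and 2.29%. The count of 4 depended on single libraries, and so did the share of all genes that edgeR called in either direction. Without Rpl22-/- replicate 3 the count was 0 and the share 0.892%, and without Rpl22+/+ replicate 1 the count was 0 and the share 1.44%. With all libraries, 11 of the 31 were lower and 1 higher at an unadjusted p below 0.05, against 10.7% and 11.6% of all genes. Without Rpl22-/- replicate 1 the count was 8 (7 lower, and Scap higher) and the share 12.1%. The count was 2 without Rpl22-/- replicate 2 (share 2.59%), 1 without Rpl22+/+ replicate 2 (1.82%) and 6 without Rpl22+/+ replicate 3 (1.69%).

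**Figure D1:**
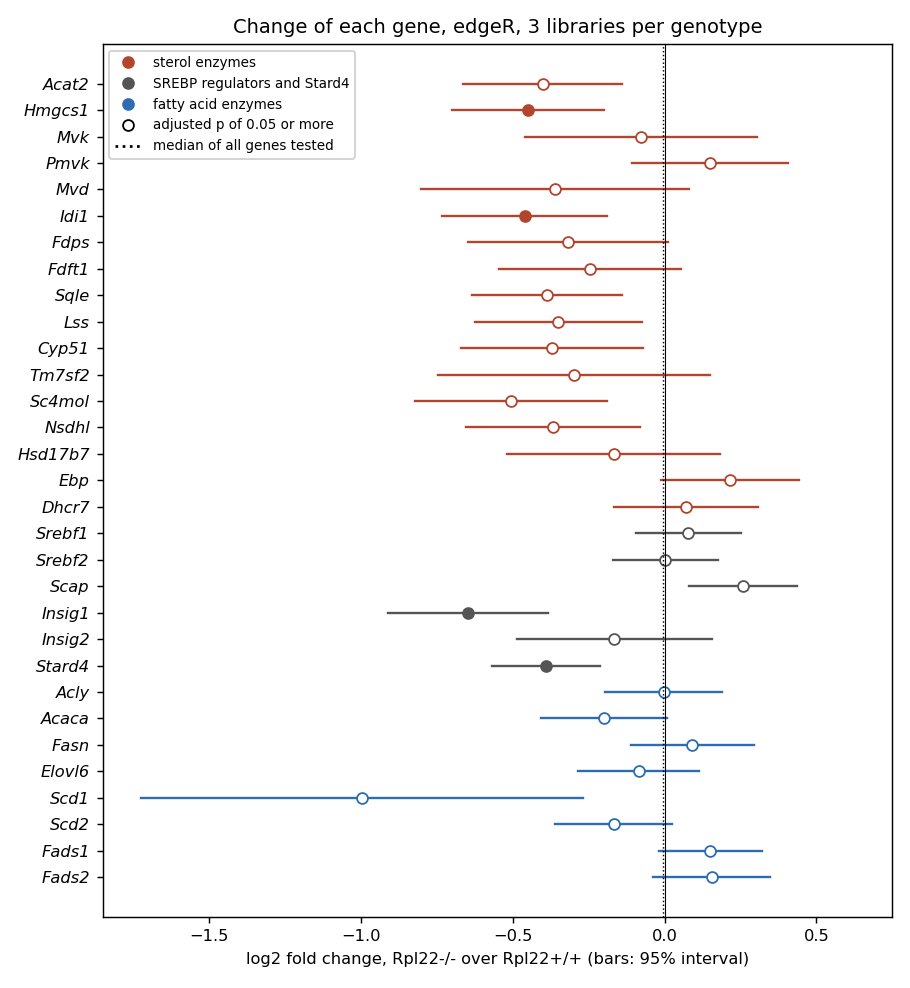
Log2 fold change of each of the 31 genes in Rpl22-/- over Rpl22+/+ HSCs (horizontal axis), with the 95% interval as a bar, in pathway order from top to bottom. Filled points are the 4 genes with an adjusted p below 0.05, all to the left of 0, and 14 of the 17 sterol enzymes lie left of 0 while the fatty acid enzymes fall on either side.

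Among the regulators, Insig1 had the lowest p-value of the 31 genes. Insig1 encodes an INSIG protein that retains SCAP and is itself a target of the SREBPs. It measured 48.4, 35.0 and 43.2 CPM in Rpl22-/- replicates 1, 2 and 3, and 75.5, 64.5 and 58.1 CPM in Rpl22+/+ replicates 1, 2 and 3. Every Rpl22-/- library was below every Rpl22+/+ library, although an exact permutation test of 3 libraries against 3 (two-sided) cannot give a p under 0.1. Its level in Rpl22-/- HSCs was 63.9% of that in Rpl22+/+ HSCs, a log2 fold change of −0.65 (SE 0.124, adjusted p = 0.0102). The study had also picked Insig1 from these libraries as a lower gene, as it had Scd1 and Msmo1, so their direction here is not independent evidence. Insig1 kept an adjusted p below 0.05 in 15 of 17 other ways of processing, and it missed without Rpl22-/- replicate 3 (0.0566) and without Rpl22+/+ replicate 1 (0.0606).

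Its paralog Insig2, which does the same work and is not induced by SREBPs in the same way, averaged 19.4 ± 4.01 CPM without Rpl22 and 21.8 ± 1.57 CPM with it (SD, n = 3 each). The libraries of the genotypes overlapped, and the log2 fold change of −0.17 had a 95% interval from −0.49 to 0.16 (adjusted p = 0.563). Whether the changes of the 2 paralogs differ was not tested.

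The transcription factors themselves were close between the genotypes. Srebf2 measured 306, 320 and 309 CPM in Rpl22-/- replicates 1, 2 and 3 and 314, 303 and 316 CPM in Rpl22+/+ replicates 1, 2 and 3, all within the same range. Its log2 fold change was 0.0026 with a 95% interval from −0.17 to 0.17. Srebf1 measured 103 ± 2.33 CPM in Rpl22-/- and 97.5 ± 4.60 CPM in Rpl22+/+ HSCs (SD, n = 3 each), and its interval ran from −0.095 to 0.25. These are levels of mRNA. The processing of the SREBP proteins, on which their activity depends, was not measured.

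Scap, the escort that carries SREBPs to the Golgi, differed in the other direction from Insig1. It measured 104, 118 and 111 CPM in the Rpl22-/- libraries and 93.8, 91.7 and 93.4 CPM in the Rpl22+/+ libraries, without overlap. The log2 fold change was 0.26 (95% interval 0.081 to 0.43, unadjusted p = 0.00715, adjusted p = 0.0792). Its adjusted p dropped below 0.05 without Rpl22-/- replicate 1 (0.0280) and after the length trend of each library was removed (0.0464). Of the exonic bases of Scap, 13.2% are shared with 5830462I19Rik on the opposite strand, and since the strand setting of the counting is not given, reads there cannot be told apart.

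Stard4, a carrier that moves cholesterol between membranes and that SREBP-2 induces, was lower in Rpl22-/- HSCs. Its levels were 172, 150 and 155 CPM in Rpl22-/- replicates 1, 2 and 3 and 211, 202 and 213 CPM in Rpl22+/+ replicates 1, 2 and 3. The highest Rpl22-/- library was below the lowest Rpl22+/+ library. The log2 fold change was −0.39 (SE 0.0842, adjusted p = 0.0166), and 13 of 17 other ways of processing kept it below 0.05. The exceptions were 4 fits with a library left out, those without Rpl22-/- replicate 3 (0.0809) and without Rpl22+/+ replicate 1 (0.0846), 2 (0.0536) or 3 (0.0653).

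In the sterol branch, 14 of 17 enzymes (82.4%) had a log2 fold change below 0, compared with 51.3% of all genes tested. The median was −0.35, and the median over all genes was −0.0068. At an unadjusted p below 0.05, 8 of the 17 (47.1%) were lower, against 10.7% of all genes, and 0 were higher. In 5 (29.4%) every Rpl22-/- library was below every Rpl22+/+ library, against 13.6% of all genes. In 2 the reverse held (11.8%, against 13.3% of all genes). Enzymes of 1 pathway are not replicates of the genotype, and these shares are given as a description.

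The steps from acetyl-CoA to squalene come before any sterol is formed. Acat2, the cytosolic thiolase that joins acetyl-CoA units, measured 27.0, 25.5 and 24.2 CPM in the Rpl22-/- libraries and 36.2, 29.0 and 36.1 CPM in the Rpl22+/+ libraries, without overlap (log2 fold change −0.40, unadjusted p = 0.00492, adjusted p = 0.0662). Acat2 shares 97.7% of 1477 aligned bases with Acat3, which had between 614 and 1016 reads per library, so its counts are uncertain. Hmgcs1, which makes HMG-CoA, measured 42.8, 37.9 and 47.1 CPM in Rpl22-/- replicates 1, 2 and 3 and 64.8, 60.8 and 48.5 CPM in Rpl22+/+ replicates 1, 2 and 3. The genotypes did not overlap, although Rpl22+/+ replicate 3 came close to Rpl22-/- replicate 3. The log2 fold change of Hmgcs1 was −0.45 (SE 0.118, adjusted p = 0.0371).

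Idi1, the isomerase that supplies dimethylallyl diphosphate, showed the influence of Rpl22+/+ replicate 3 more clearly. It measured 53.4, 54.9 and 51.0 CPM in Rpl22-/- replicates 1, 2 and 3, and 83.4, 80.3 and 54.6 CPM in Rpl22+/+ replicates 1, 2 and 3. The last of these lies inside the Rpl22-/- range. The log2 fold change was −0.46 (SE 0.128, adjusted p = 0.0465), and it was −0.63 without Rpl22+/+ replicate 3 (adjusted p = 0.00718). Hmgcs1 and Idi1 lost their calls with each library's trend on GC content removed (adjusted p = 0.0904 and 0.184) and without Rpl22-/- replicate 2 (0.122 and 0.0864), Rpl22-/- replicate 3 (0.0755 and 0.173), Rpl22+/+ replicate 1 (0.187 and 0.214) or Rpl22+/+ replicate 2 (0.132 and 0.173). Both also missed with length and GC trends removed and a replicate block (0.0800 and 0.0797), and Idi1 missed with limma-voom (0.0619). In the fits that lost the call the log2 fold change ran from −0.53 to −0.36 for Hmgcs1 and from −0.49 to −0.31 for Idi1. An antisense transcript shares 12.1% of the exonic bases of Hmgcs1 and another 9.22% of those of Idi1, and 2 other genes align with Idi1 at 97.7% and 100% identity.

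The other genes of this stretch did not pass the adjusted threshold. Mvd, Fdps and Fdft1 had log2 fold changes of −0.36, −0.32 and −0.25, with adjusted p-values of 0.323, 0.239 and 0.325. They encode the decarboxylase of the mevalonate pathway, the synthase of farnesyl diphosphate and squalene synthase. Of its exonic bases, Fdps shares 26.7% with Gm43738 on the same strand, and Fdft1 shares 18.3% with Ctsb on the opposite strand. The counts of Fdps and Fdft1 are therefore uncertain. For Fdps, Rpl22+/+ replicate 3 at 32.2 CPM was the lowest of all 6 libraries while Rpl22+/+ replicates 1 and 2 at 52.8 and 53.6 CPM were the highest. The mevalonate kinases were nearer 0. Mvk had a log2 fold change of −0.077 (95% interval −0.46 to 0.31), and Pmvk, at 0.15 (−0.11 to 0.41), was higher in every Rpl22-/- library than in any Rpl22+/+ library, with 22.2 to 24.5 CPM against 20.7 to 21.8 CPM.

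From squalene to cholesterol, 7 of 9 enzymes had values below 0, with a median of −0.35, close to the −0.34 of the 8 enzymes before squalene. None of the 9 passed the adjusted threshold by edgeR or limma-voom, and 5 had an unadjusted p below 0.05. DESeq2 called Sqle and Sc4mol. Sqle, the squalene epoxidase that controls the entry into sterols, measured 50.5, 49.9 and 52.5 CPM in the Rpl22-/- libraries and 77.0, 69.1 and 53.3 CPM in the Rpl22+/+ libraries (log2 fold change −0.39, adjusted p = 0.0613). The genotypes were parted by less than 1 CPM, between Rpl22+/+ replicate 3 and Rpl22-/- replicate 3. Sc4mol, the C4-methyl sterol oxidase, had the lowest fold change of the sterol enzymes at −0.51 (SE 0.149, adjusted p = 0.0581). Its levels were 32.3, 29.4 and 30.2 CPM in Rpl22-/- and 54.2, 43.3 and 32.3 CPM in Rpl22+/+ HSCs, again with Rpl22+/+ replicate 3 among the Rpl22-/- libraries.

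Lanosterol synthase (Lss), lanosterol demethylase (Cyp51) and the C4 dehydrogenase Nsdhl had log2 fold changes of −0.35, −0.37 and −0.37, with adjusted p-values of 0.119, 0.130 and 0.117. Of these, Nsdhl alone had no overlap, with 21.7 to 23.8 CPM in Rpl22-/- and 26.2 to 35.1 CPM in Rpl22+/+ HSCs. Tm7sf2 and Hsd17b7, a sterol reductase and a ketoreductase, had values of −0.30 and −0.17 with intervals that included 0. The enzymes at the end of the branch lay on the other side. Ebp, the sterol isomerase, measured 35.5, 39.0 and 37.5 CPM in the Rpl22-/- libraries and 33.3, 33.3 and 29.7 CPM in the Rpl22+/+ libraries, all Rpl22-/- libraries being higher (log2 fold change 0.21, unadjusted p = 0.0626, adjusted p = 0.252). Dhcr7, which reduces a double bond of the B ring, had 0.070 (95% interval −0.17 to 0.31).

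**Figure D2:**
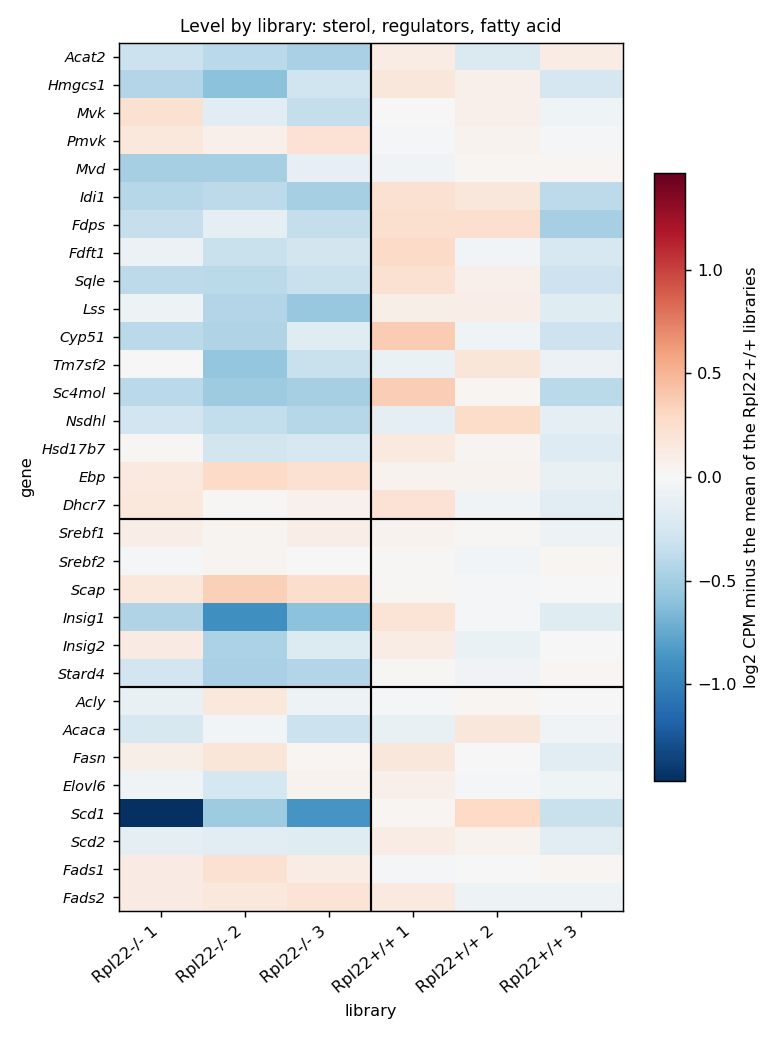
Level of the 31 genes (down) in the 6 libraries (across) as log2 CPM minus the mean of the 3 Rpl22+/+ libraries, blue for lower and red for higher, with black lines between sterol enzymes, regulators and fatty acid enzymes. The Rpl22-/- columns are mostly blue in the sterol block, and Rpl22+/+ replicate 3 is paler or bluer there than Rpl22+/+ replicates 1 and 2.

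The fatty acid branch had a median log2 fold change of −0.044, with 5 of 8 enzymes below 0. By edgeR 0 of the 8 passed the adjusted threshold and 1, Scd1, had an unadjusted p below 0.05, and DESeq2 and limma-voom also called 0. The enzymes that build palmitate were close between the genotypes. ATP citrate lyase (Acly), which supplies cytosolic acetyl-CoA to both branches, measured 255 ± 26.4 CPM in Rpl22-/- and 255 ± 4.04 CPM in Rpl22+/+ HSCs (SD, n = 3 each), with an interval from −0.19 to 0.19. Fatty acid synthase (Fasn) measured 238, 254 and 228 CPM in the Rpl22-/- libraries and 251, 225 and 199 CPM in the Rpl22+/+ libraries, which overlapped (log2 fold change 0.092, 95% interval −0.11 to 0.29). Acetyl-CoA carboxylase (Acaca) had −0.20 with an interval from −0.41 to 0.0087. Acaca shares 99.2% of 6118 aligned bases with Gm5182, so its counts are uncertain.

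The enzymes that lengthen and desaturate fatty acids were mixed. Scd1, a stearoyl-CoA desaturase, was sparsely covered: Rpl22-/- replicates 1, 2 and 3 gave 14, 27 and 23 reads, while Rpl22+/+ replicates 1, 2 and 3 gave 44, 51 and 25. As CPM this was 1.09, 2.25 and 1.75 CPM against 3.38, 4.09 and 2.60 CPM, without overlap. Its log2 fold change of −0.997 was the lowest of the 31, with an SE of 0.343 and an adjusted p of 0.0963. Scd2, the form that supplied most of the desaturase mRNA here, measured 377 ± 4.23 CPM in Rpl22-/- and 424 ± 40.2 CPM in Rpl22+/+ HSCs (SD, n = 3 each), a log2 fold change of −0.17 (adjusted p = 0.292). Their transcripts share 95.5% of 623 aligned bases. Elovl6, which lengthens palmitate, had −0.086. The desaturases of polyunsaturated fatty acids had positive values, 0.15 for Fads1 and 0.16 for Fads2 (adjusted p = 0.281 and 0.329), and the libraries of Fads1 did not overlap, with 156 to 169 CPM in Rpl22-/- and 142 to 148 CPM in Rpl22+/+ HSCs.

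**Figure D3:**
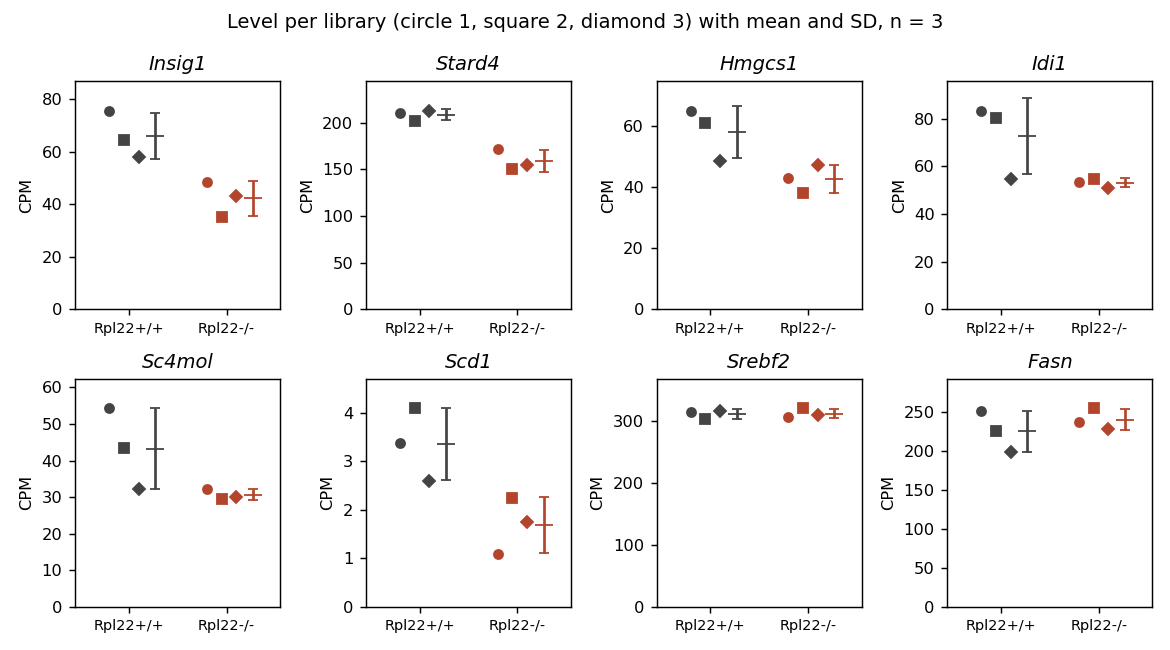
CPM in each library for Insig1, Stard4, Hmgcs1, Idi1, Sc4mol, Scd1, Srebf2 and Fasn, with Rpl22+/+ in grey and Rpl22-/- in red, a marker shape for each replicate number, and the mean with SD (n = 3) beside the points; each vertical axis starts at 0. Insig1 and Stard4 are separate between genotypes, the diamond of Rpl22+/+ replicate 3 drops to the Rpl22-/- level for Idi1 and Sc4mol, and Srebf2 and Fasn overlap.

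The branches were then set side by side. The sterol median was 0.31 below the fatty acid median on the log2 scale, and this gap ran from −0.32 to −0.23 across the 17 other ways of processing. As a mean over the genes of each branch, centred on the 6 libraries, sterol enzymes stood at −0.049, −0.18 and −0.14 in Rpl22-/- replicates 1, 2 and 3 and at 0.25, 0.18 and −0.065 in Rpl22+/+ replicates 1, 2 and 3. Rpl22+/+ replicate 3 thus fell between Rpl22-/- replicates. The fatty acid enzymes stood at −0.15, 0.029 and −0.068 across the Rpl22-/- libraries against 0.11, 0.12 and −0.040 in the Rpl22+/+ libraries. The genotype difference of these means was −0.24 for the sterol branch and −0.13 for the fatty acid branch, and without Scd1 the latter was −0.0073. The sterol mean less the fatty acid mean was 0.0996, −0.21 and −0.068 across the Rpl22-/- libraries against 0.14, 0.063 and −0.026 in the Rpl22+/+ libraries, so the genotypes overlapped. No test was made of a score over chosen genes.

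Which library carried the extremes was also counted. Of the 17 sterol enzymes, 9 were highest in Rpl22+/+ replicate 1, 5 in Rpl22+/+ replicate 2 and 0 in Rpl22+/+ replicate 3. The lowest library was Rpl22-/- replicate 2 for 8 and Rpl22-/- replicate 3 for 5. For 13 enzymes Rpl22+/+ replicate 3 was below both other Rpl22+/+ libraries. This library also had the fewest reads on genes, 9321123.

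**Figure D4:**
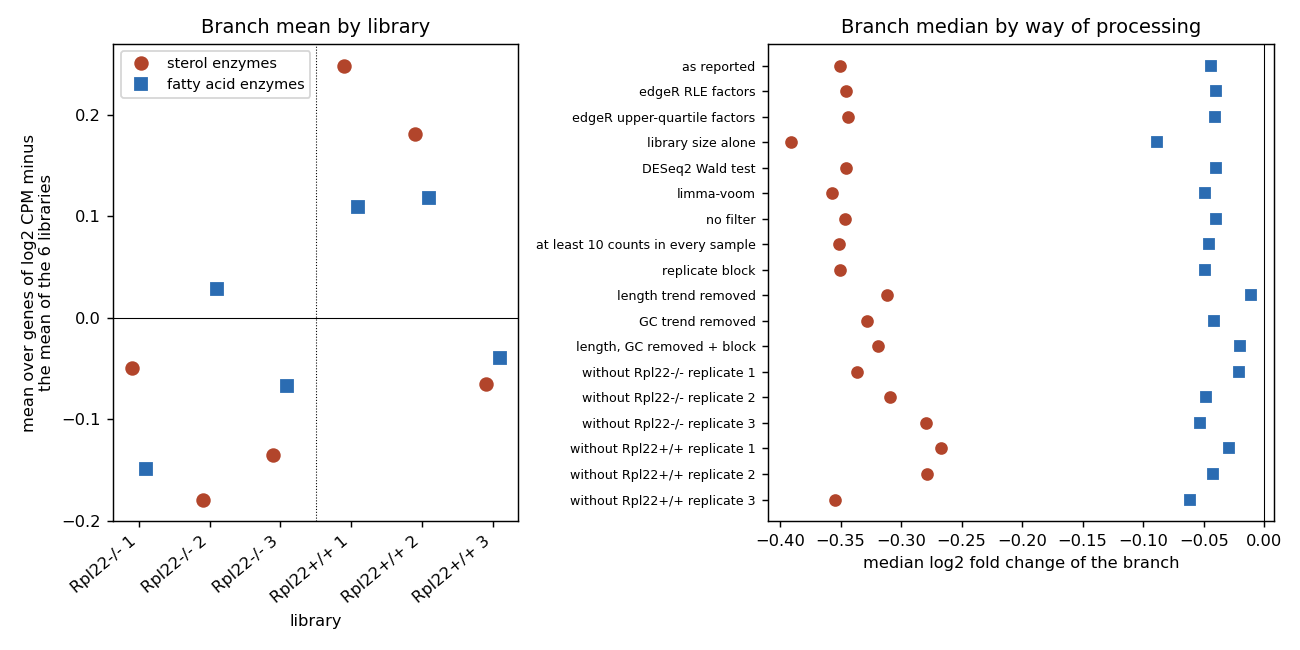
Left, the mean over the 17 sterol and the 8 fatty acid enzymes of log2 CPM minus the mean of the 6 libraries, for each library. Right, the median log2 fold change of each branch as reported and under 17 other ways of processing, where the sterol medians stay between −0.39 and −0.27 and the fatty acid medians between −0.089 and −0.011.

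Divided by exonic length, so that genes can be compared, the levels in Rpl22+/+ HSCs ran from 77.6 ± 7.35 CPM per kb (SD, n = 3) for Scd2 to 0.687 ± 0.153 CPM per kb for Scd1. Acly followed Scd2 at 48.3 ± 0.766 and Srebf2 at 43.3 ± 1.03 CPM per kb. Idi1 led the sterol enzymes at 20.8 ± 4.50 CPM per kb, within the spread of Insig1, Fads2 and Fasn at 21.4, 20.8 and 20.6 CPM per kb. The other sterol enzymes lay lower, from 13.9 CPM per kb for Ebp to 1.68 CPM per kb for Tm7sf2. In Rpl22-/- HSCs Ebp, at 16.2 ± 0.740 CPM per kb, stood above Idi1, at 15.1 ± 0.559 CPM per kb, the reverse of their order in Rpl22+/+ HSCs.

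Promoter sequences of 6 of the genes follow, because SREBPs act at the promoter together with the factors NF-Y and Sp1. RefSeq's windows on GRCm38.p6, the assembly also named mm10, reach from 250 bases before to 50 after each transcription start, and 24 of the 31 genes had at least 1. Those without a window were Stard4, which was called lower, and Fdps, Fdft1, Sqle, Scd1, Scd2 and Fads1. Shown are the 250 bases before the start, 5′ to 3′ on the strand of the gene. Insig1, Hmgcs1 and Idi1 were called lower, Sc4mol had the lowest fold change of the sterol enzymes, and Ebp and Fasn, chosen after their values were seen, are shown for contrast as enzymes with values above 0. Capitals mark matches on either strand to the sterol regulatory element core TCACNCCAC, the NF-Y box CCAAT and the Sp1 box GGGCGG.
Insig1 (chr5:28071162-28071411, forward): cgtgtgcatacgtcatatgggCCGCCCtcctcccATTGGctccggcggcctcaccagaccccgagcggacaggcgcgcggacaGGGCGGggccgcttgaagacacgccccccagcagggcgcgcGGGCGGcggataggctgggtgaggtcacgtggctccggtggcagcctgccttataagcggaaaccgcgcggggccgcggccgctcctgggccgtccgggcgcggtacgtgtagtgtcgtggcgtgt
Hmgcs1 (chr13:119690101-119690350, forward): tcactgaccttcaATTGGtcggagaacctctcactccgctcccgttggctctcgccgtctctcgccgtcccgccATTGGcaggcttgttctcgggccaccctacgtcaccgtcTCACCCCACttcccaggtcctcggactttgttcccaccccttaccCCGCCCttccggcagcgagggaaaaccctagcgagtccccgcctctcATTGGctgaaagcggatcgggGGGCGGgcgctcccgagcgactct
Idi1 (chr13:8885356-8885605, forward): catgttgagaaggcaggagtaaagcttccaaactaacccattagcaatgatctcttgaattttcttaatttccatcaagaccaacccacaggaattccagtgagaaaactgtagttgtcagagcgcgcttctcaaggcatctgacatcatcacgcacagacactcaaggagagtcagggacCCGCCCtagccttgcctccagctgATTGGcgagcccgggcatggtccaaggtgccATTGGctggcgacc
Sc4mol (chr8:64733579-64733828, reverse): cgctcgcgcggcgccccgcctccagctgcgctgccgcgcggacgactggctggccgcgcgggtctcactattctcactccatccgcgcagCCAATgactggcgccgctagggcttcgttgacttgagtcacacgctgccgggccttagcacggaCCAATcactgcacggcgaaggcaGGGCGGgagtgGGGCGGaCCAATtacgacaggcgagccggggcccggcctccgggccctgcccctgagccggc
Ebp (chrX:8193513-8193762, reverse): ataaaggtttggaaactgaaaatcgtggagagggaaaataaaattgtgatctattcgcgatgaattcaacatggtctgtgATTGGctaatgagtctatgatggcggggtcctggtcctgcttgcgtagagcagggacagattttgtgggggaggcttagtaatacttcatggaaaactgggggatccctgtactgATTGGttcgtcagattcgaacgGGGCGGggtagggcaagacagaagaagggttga
Fasn (chr11:120824548-120824797, reverse): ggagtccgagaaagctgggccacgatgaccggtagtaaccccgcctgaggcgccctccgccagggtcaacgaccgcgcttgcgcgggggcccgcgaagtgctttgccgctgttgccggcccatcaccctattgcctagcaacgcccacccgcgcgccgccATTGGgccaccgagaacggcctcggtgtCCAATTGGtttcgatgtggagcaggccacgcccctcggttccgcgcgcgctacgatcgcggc

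In Hmgcs1 the element core begins 137 bases before the start, between NF-Y boxes at 176 and 45 bases. It was the only 1 of the 24 genes whose windows held the core, which 1.44% of all 27025 genes in the table hold. The NF-Y box was in 13 of 14 sterol enzymes with a window, 4 of 5 regulators and 2 of 5 fatty acid enzymes, against 41.1% of all genes. The Sp1 box was in 13 of 14 sterol enzymes, 5 of 5 regulators and 2 of 5 fatty acid enzymes, against 38.2% of all genes. Ebp, which was not lower, held NF-Y boxes at 170 and 55 bases and an Sp1 box at 33 bases before its start, as Idi1 did at 45, 14 and 69 bases. In Fasn 2 of its 3 NF-Y matches overlap on opposite strands. These are matches of letters, and binding was not measured.

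**Figure D5:**
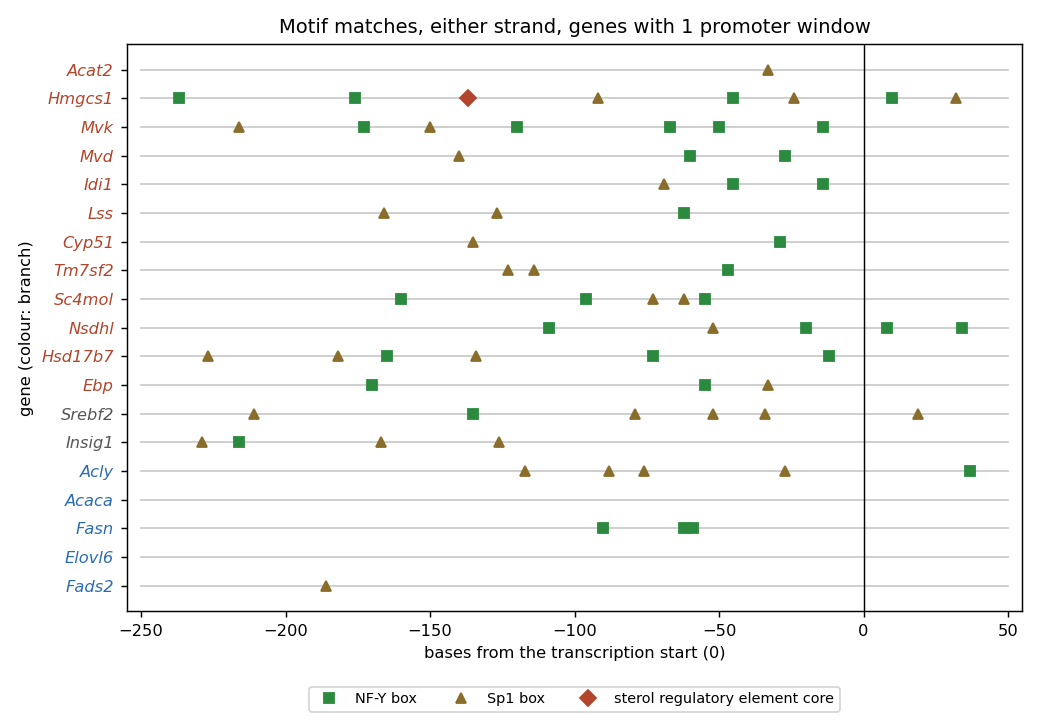
Position of each motif match (symbols) from the transcription start at 0, in bases, for the genes with a single RefSeq promoter window, either strand. Green squares of the NF-Y box and brown triangles of the Sp1 box occur in most sterol enzymes, the diamond of the sterol regulatory element core occurs in Hmgcs1, and Acaca and Elovl6 hold no match.

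Other genes around the pathway were taken from 5 lists. Of the 71 tested, edgeR called 2 lower and 1 higher at the adjusted threshold, against 2.29% and 3.28% of all genes tested. At an unadjusted p below 0.05, 9 were lower and 7 higher, against 10.7% and 11.6% of all genes. Of 12 other enzymes of sterols and isoprenoids, 8 had values below 0 with a median of −0.12, and 0 passed the adjusted threshold by edgeR, DESeq2 or limma-voom, with 3 at an unadjusted p below 0.05. Of 11 genes for the SREBP proteases and for the turnover of INSIG, 0 passed, none had an unadjusted p below 0.05 by edgeR, and the other tools called 0. The protease genes Mbtps1 and Mbtps2, named for their role after their values were seen, had log2 fold changes of 0.056 and −0.12. Of 11 genes for the sterol-sensing LXR receptors and their targets, 0 passed by edgeR or the other tools, 3 had an unadjusted p below 0.05, and the median was 0.13.

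Of 13 genes for the uptake, storage and transport of sterols, 2 passed and were lower (15.4%, against 2.29% of all genes). Vldlr, a lipoprotein receptor, measured 35.9, 31.8 and 25.1 CPM across the Rpl22-/- libraries against 47.1, 44.5 and 43.0 CPM across the Rpl22+/+ libraries, a log2 fold change of −0.54 (SE 0.125, adjusted p = 0.0225). Nceh1, which hydrolyzes cholesteryl esters, had −0.30 (SE 0.0802, adjusted p = 0.0401). In CPM the genotypes did not overlap for either gene. Of 17 other ways of processing, 12 kept the call of Vldlr and 9 that of Nceh1. Of 26 further genes of fatty acid and triglyceride synthesis 24 were tested, and Tecr, the reductase that ends each round of elongation, passed. It was higher, at 166 ± 5.81 CPM in Rpl22-/- and 131 ± 3.14 CPM in Rpl22+/+ HSCs (SD, n = 3 each), with a log2 fold change of 0.34 (adjusted p = 0.0242). Tecr kept that call in 10 of 17 other ways of processing, and in none with a length or GC trend removed. Dgat2 and Mlxipl had too few reads to test, at most 9 in any library. The 3 calls became 0 without Rpl22-/- replicate 3 or any single Rpl22+/+ library, when edgeR called 0.892% to 1.82% of all genes. Without Rpl22-/- replicate 1 there were 6 calls in the lists, and 12.1% of all genes were called.

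Markers of HSCs were present in all libraries, and those of other marrow cells differed between the genotypes in places. Summed over 7 HSC markers the level was 751 to 847 CPM in Rpl22-/- and 870 to 918 CPM in Rpl22+/+ libraries, with 1 marker, Fgd5, called lower. Hlf made up most of that sum, at 458 ± 20.0 CPM in Rpl22-/- and 522 ± 26.0 CPM in Rpl22+/+ HSCs (SD, n = 3 each). The sort markers Slamf1, which encodes CD150, and Ly6a, which encodes Sca-1, had log2 fold changes above 0, at 0.30 and 0.28 (adjusted p = 0.154 and 0.273), and their libraries overlapped. Over 5 megakaryocyte markers it was 210.2 to 297.6 CPM against 126.2 to 209.9 CPM, and 3 of the 4 tested, Pf4, Gp1ba and Gp9, were called higher, Gp6 being at 0 in every library. Over 6 neutrophil genes it was 19.1 to 37.2 CPM against 3.77 to 23.3 CPM, with Camp called higher. Over 5 erythroid genes it was 5.99 to 7.90 CPM against 7.39 to 17.4 CPM, with Car1 called lower and Rpl22+/+ replicate 3 at the low end. Their part in the lower sterol enzymes was not tested. Macrophage genes overlapped, at 10.7 to 20.5 CPM against 11.8 to 14.9 CPM. The adipocyte genes Adipoq, Plin1, Cidec and Lep were at 0 in every library, and the T cell gene Cd3e was as well, while Cd79b made up most of a B cell sum of 21.2 to 28.2 CPM.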

How the data were processed

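RNA from sorted HSCs was sequenced by the study's authors as polyA-selected libraries, aligned with TopHat2 2.1.1 and counted per gene with HTSeq, per the methods and the submitters' processing notes. The deposited values are raw read counts per gene for 34573 genes in 3 Rpl22-/- and 3 Rpl22+/+ libraries. The strand setting of the counting is not given in the sources used here. Of all counts, 58.63% to 60.87% fell on no single gene and were left out, which left 9321123 to 13385850 per library. For lengths, GC content and positions, 29093 genes were matched to the annotation by symbol and 1849 by an older symbol, and 3631 were not matched.

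Genes with enough reads by filterByExpr (minimum count 10) were kept, 14004 in all. Counts were scaled with TMM factors and tested with edgeR 4.0.16 (R 4.3.3) by the quasi-likelihood test, genotype being the single term, and p-values were adjusted by Benjamini-Hochberg across every tested gene at a threshold of 0.05. Intervals are 95% intervals of the log2 fold change. The scripts were tested on simulated data. Log2 CPM used a prior count of 2. DESeq2 1.42.0, limma-voom (limma 3.58.1), other scaling factors and filters, a replicate block, removal of trends on length and GC content, and leaving out each library were tried as alternatives, 17 in all. Near-identical copies were sought with BLAST 2.17.0 (at least 95% identity over 200 bases). Promoter windows came from RefSeq.

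The members, the other gene lists and the markers were chosen with earlier results of these data known. All 31 members are named. From the other lists, genes with an adjusted p below 0.05 are named, with exceptions stated where they occur, and marker genes are named where called, where at 0, or where they make up most of a sum, with Slamf1 and Ly6a added after their values were seen.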

Additional observations from a re-analysis of the deposited data

How the results depend on the processing

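Over 17 alternatives, 488 of 527 values of the 31 genes stayed on the same side of the threshold, 19 lost a call, 20 gained a call, and no called gene changed sign. In 16 the sign changed in a gene that was never called. The branch medians and their gap moved by less than the spread between libraries. With no filter on low counts 9 of the 31 genes and 1422 of all genes were called. With library size alone, DESeq2 and limma-voom 6, 6 and 3 of the 31 were called, against 6.07%, 7.55% and 5.3% of all genes. With the GC trend removed 2 of the 31, 484 of all genes and 1 gene of the other lists were called. With the length trend removed 6 of the 31 (Acat2 and Scap added) and 642 of all genes were. There the other lists had 1 call, Ptplad1, so that Vldlr, Nceh1 and Tecr lost theirs. With length and GC trends removed and the replicate block, Acat2 gained a call and Hmgcs1 and Idi1 lost theirs. Tecr was called in none of these trend fits. Leaving out 1 library gave 127 to 1720 calls over all genes against 780, 0 to 8 among the 31 against 4, and 0 to 6 in the other lists against 3. The cause of these differences was not tested. With a replicate block 5 of the 31 were called, Sc4mol being added, with 904 over all genes and 4 in the other lists. Deviations of libraries with the same number correlated at −0.103, 0.0549 and 0.0448, so the numbers were not taken to pair the libraries. Allowing 1 mismatch in the sterol regulatory element core, an alternative chosen after seeing the data, gave 11 genes with a match against 1, and 26.7% of all genes. For Scd1, with 14 to 51 reads per library, depth limited the precision.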
